A study of Mus musculus with 18 samples.

Results

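NADPH oxidases are membrane enzymes that pass electrons from NADPH to oxygen and so make superoxide or hydrogen peroxide. The genes described here are 8: Nox1, Nox4, Cybb (NOX2) and Duox2, which encode catalytic subunits, Cyba (p22phox), which encodes the membrane partner of several of them, Noxo1 and Noxa1, which encode the organiser and the activator of NOX1, and Duoxa2, the maturation factor of DUOX2. They were chosen by gene symbol, with their values in all 6 groups already known, so their levels and differences are given as descriptions. Probes of 7 of the 8 genes were found by RefSeq accession, 9 probes in all of 41174 on the array. No probe carried an accession of Duox2, and that gene has no value here. The 7 genes are among 26073 that entered the fit, each represented by its brightest probe.

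The study used male C57BL/6 mice, which ate either a control diet or one containing the herbal medicine St. John's wort (SJW) and received an injection of saline or of the carcinogen azoxymethane (AOM), used in rodents to raise intestinal tumours. There were 6 groups of 3 arrays: control diet with saline, SJW diet with saline, control diet with AOM and SJW diet with AOM, all from tissue outside tumours, and tumours from mice on the control diet with AOM and from mice on the SJW diet with AOM. The labels name the tissue as small intestine and give no age, dose or time, and they do not say whether a tumour and a non-tumour sample came from the same mouse. Each sample's RNA, labelled with Cy5, was set on a 2-colour array against 1 common pool, labelled with Cy3, of RNA from 10 Swiss Webster mouse sources: thymus, spleen, lung, heart, liver, kidney, brain, ovary, testicle and whole embryo, with no intestine. A level below is the log2 ratio of sample over pool, so 0 means equal to the pool and 1 means 2-fold above it. Levels of different genes are not compared, since the pool holds a different amount of each.

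In the gut, NOX1 works as a complex in the membrane of epithelial cells, above all in the colon: NOXO1 brings the complex together, NOXA1 activates it, p22phox steadies NOX1 in the membrane, and the small GTPase RAC1 switches it on. DUOX2 makes hydrogen peroxide at the surface of epithelial cells, where it is part of the defence against bacteria, and it leaves the endoplasmic reticulum only with DUOXA2. NOX2 is the oxidase of neutrophils and macrophages, which use its superoxide against microbes, while NOX4 makes hydrogen peroxide with p22phox alone and is known from kidney, vessels and fibroblasts.

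The stretches before the start sites of 4 genes are shown, those of Nox1, Noxo1 and Duoxa2 because the tumour and AOM comparisons turn on these genes, and that of Cybb because the NOX2 gene is a textbook target of interferon. Each comes from the RefSeq annotation of GRCm38.p6 and reads 5′ to 3′ on the gene's strand up to the base before its start site. Capitals mark matches, on either strand, of the motifs searched. Nox1 lies on the minus strand with its stretch at chrX:134111855-134112104, Noxo1 on the plus strand at chr17:24695984-24696233, Duoxa2 on the plus strand at chr2:122298741-122298899 and Cybb on the minus strand at chrX:9469325-9469574. The stretches of Nox1 and Cybb fall inside longer annotated models of the same genes.
Nox1: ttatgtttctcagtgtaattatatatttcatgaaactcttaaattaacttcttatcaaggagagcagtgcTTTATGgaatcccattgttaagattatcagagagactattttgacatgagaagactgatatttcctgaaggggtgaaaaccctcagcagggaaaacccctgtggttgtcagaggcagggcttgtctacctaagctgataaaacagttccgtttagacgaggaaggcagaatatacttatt
Noxo1: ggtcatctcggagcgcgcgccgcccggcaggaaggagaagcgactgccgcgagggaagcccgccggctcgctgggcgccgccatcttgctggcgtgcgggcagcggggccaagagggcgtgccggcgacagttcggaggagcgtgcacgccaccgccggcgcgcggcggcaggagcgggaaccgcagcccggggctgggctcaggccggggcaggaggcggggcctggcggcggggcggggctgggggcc
Duoxa2: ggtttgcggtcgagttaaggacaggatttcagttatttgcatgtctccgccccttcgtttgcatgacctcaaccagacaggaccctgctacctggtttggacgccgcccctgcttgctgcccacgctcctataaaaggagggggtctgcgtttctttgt
Cybb: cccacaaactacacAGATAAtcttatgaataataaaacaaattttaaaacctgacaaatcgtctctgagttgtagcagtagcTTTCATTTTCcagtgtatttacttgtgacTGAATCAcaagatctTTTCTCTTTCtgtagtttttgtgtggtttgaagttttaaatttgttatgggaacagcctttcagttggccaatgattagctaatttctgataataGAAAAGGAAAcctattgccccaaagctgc

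Motifs were searched in the 250 bases before the start of every RefSeq gene window, 32851 in all, and a match is a description of letters and no more. Nox1 held 1 match of the CDX core TTTATG, 180 bases before its start, which 10.8% of windows also hold. Cybb held 3 matches of the interferon-stimulated response core, at 168, 124 and 29 bases before the start, a motif found in 3% of windows. It also held the GATA site AGATAA (10% of windows) and the AP-1 site TGANTCA (6.7%), and none of its matches overlapped. The Noxo1 stretch is 80% G and C and held none of the 7 motifs, whose others were the gamma-interferon activated site TTCNNNGAA (7% of windows), the TCF/LEF site CTTTGAT (3.2%) and the E-box CACGTG (6%). Duox2 and Duoxa2 are a head-to-head pair with start sites 673 bases apart, so only the 159 bases between the annotated genes are shown for Duoxa2; these held no match, and its AP-1 match lies 168 bases before its start, outside the stretch shown.

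The arrays were of uneven brightness. The median red signal was 133 to 375 on the 12 non-tumour arrays and 336.5 to 786.5 on the 6 tumour arrays, and 66% to 91.8% of probes were well above background. The 7 probes used for the genes passed the scanner's background test in the red channel of every array and never saturated. Some of their spots were flagged as non-uniform. These were Nox1 on control-diet tumour replicates 2 and 3, and Noxo1 on control-diet tumour replicates 1 and 2 and SJW saline replicate 2. Cyba was flagged on all SJW-diet tumours and some other arrays, Nox4 on SJW saline replicate 3 among others, and Cybb on control-diet tumour replicate 3. Noxa1 and Duoxa2 had no flag. Each of 3 slides carried 1 array from every non-tumour group and was scanned on the same day, and the tumour arrays filled 2 further slides scanned on another day, so tumour and scan day cannot be told apart. Of 10 colon markers 9 were measured, with a mean level of 4.75 in control saline tissue, and Hoxb13 and Hoxd13, transcription factors of the hindmost gut, had mean levels of 2.89 and 4.0 there. The 12 small intestine markers averaged 0.84, from Fabp1 at -1.16 to Fabp2 at 4.45. Rbp2 was at 3.59 and Fabp6 at 2.01, and the others were no higher than Sis at 0.80. The 9 colon markers ran from Ang4 at 2.405 to Car1 at 7.76, so all of these and some small intestine markers stood above the pool. The extraction protocol names liver, whose 6 measured markers averaged -1.23 in the same tissue. All of these are whole-tissue samples, in which fewer cells of a type and less RNA per cell cannot be told apart.

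**Figure D1:**
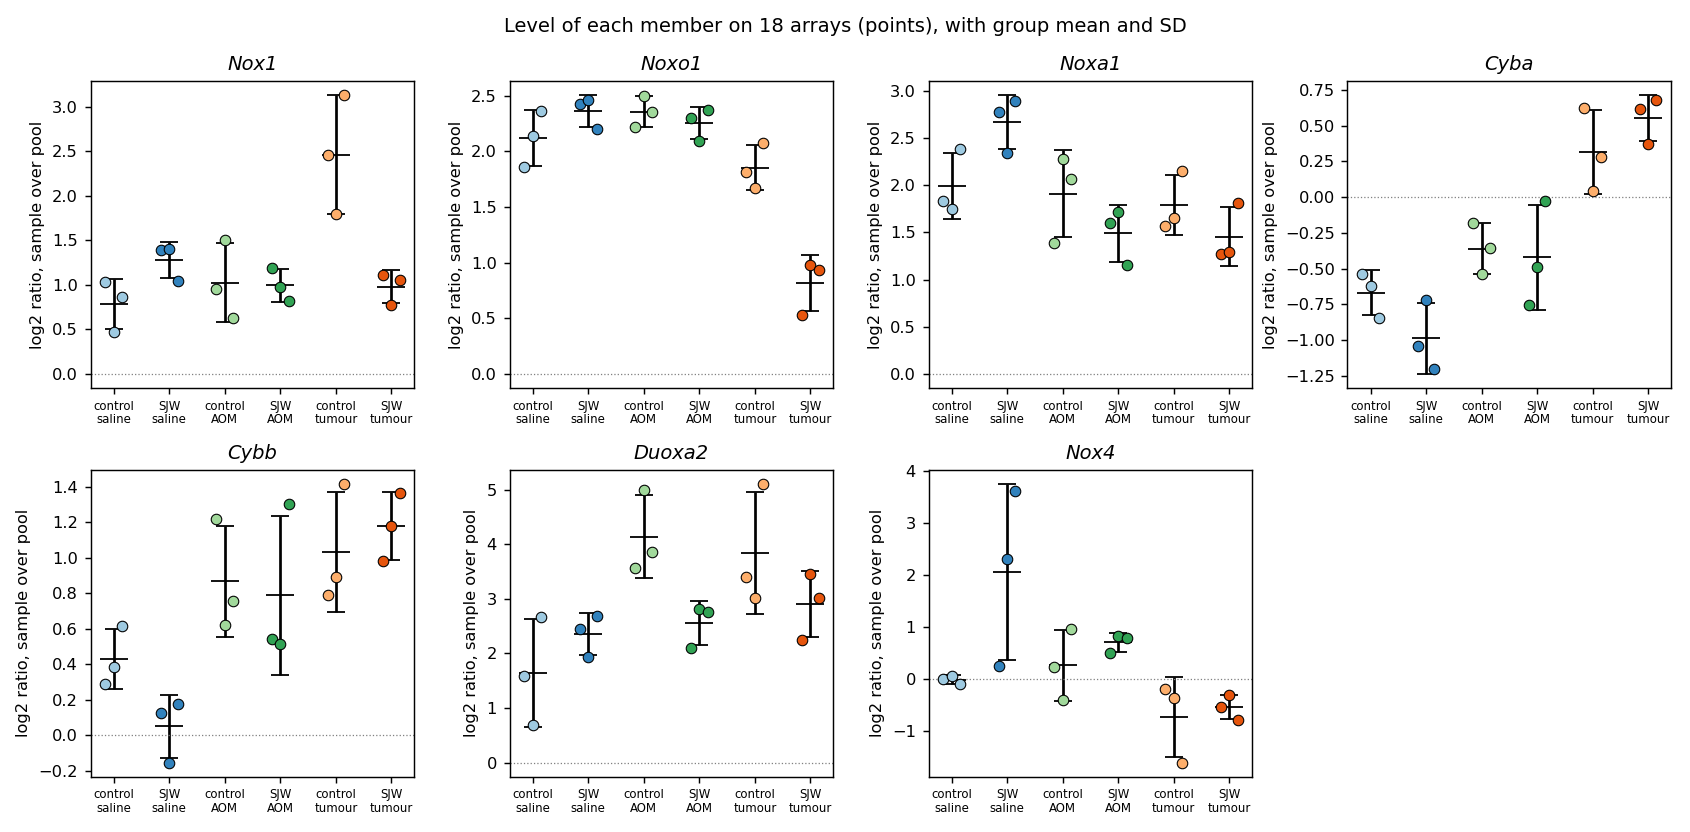
Level of each measured gene (log2 ratio of sample over pool) on each of the 18 arrays, in 6 groups of 3; points are arrays and bars are the group mean and SD. Nox1 stands at 1.80 to 3.13 in the 3 tumours of control-diet mice and at 0.48 to 1.5 on every other array, and Noxo1 is lowest, at 0.53 to 0.98, in the tumours of SJW-diet mice.

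Nox1, the catalytic subunit of the epithelial complex, was high in 1 group. Its levels were 1.03, 0.48 and 0.86 in control saline tissue and 1.39, 1.40 and 1.04 in SJW saline tissue. In tissue outside tumours after AOM they were 0.95, 1.5 and 0.63 on the control diet and 1.19, 0.98 and 0.82 on the SJW diet. The tumours of control-diet mice gave 2.45, 1.80 and 3.13, and those of SJW-diet mice 1.11, 0.77 and 1.05. Each of the 3 control-diet tumours lay above all 15 other arrays, while the SJW-diet tumours lay within the range of the non-tumour tissue. In order, the group means were 2.46 ± 0.67 (SD, n = 3) in control-diet tumours, 1.28 ± 0.20 in SJW saline, 1.03 ± 0.44 in control AOM, 1.00 ± 0.19 in SJW AOM, 0.98 ± 0.18 in SJW-diet tumours and 0.79 ± 0.28 in control saline tissue. Only the first step of that order was wider than the larger SD of its neighbours. The 0.48 of control saline replicate 2 came from a red signal of 603 over a green of 195. Replicate 1 of that group, with 186.5 over 102.5, had a level of 1.03, and replicate 3, with 224 over 244, one of 0.86. On replicate 2 the raw ratio and the level parted for Duoxa2 too, as given below.

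Noxo1, whose protein organises the NOX1 complex, was low in 1 group. Its levels were 1.86, 2.14 and 2.36 in control saline tissue, 2.43, 2.46 and 2.20 in SJW saline tissue, 2.22, 2.50 and 2.35 in control AOM tissue and 2.30, 2.09 and 2.37 in SJW AOM tissue. The control-diet tumours gave 1.82, 1.67 and 2.08, and the SJW-diet tumours 0.53, 0.98 and 0.94. The 12 non-tumour arrays thus spanned a narrow band from 1.86 to 2.50, which 1 control-diet tumour entered and no SJW-diet tumour did. The means were 2.37 ± 0.14 (SD, n = 3) in SJW saline, 2.36 ± 0.14 in control AOM, 2.26 ± 0.15 in SJW AOM and 2.12 ± 0.25 in control saline tissue, with steps smaller than the SD. Below them came 1.86 ± 0.20 in control-diet tumours and 0.82 ± 0.25 in SJW-diet tumours, each apart from its upper neighbour by more than the larger SD.

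**Figure D2:**
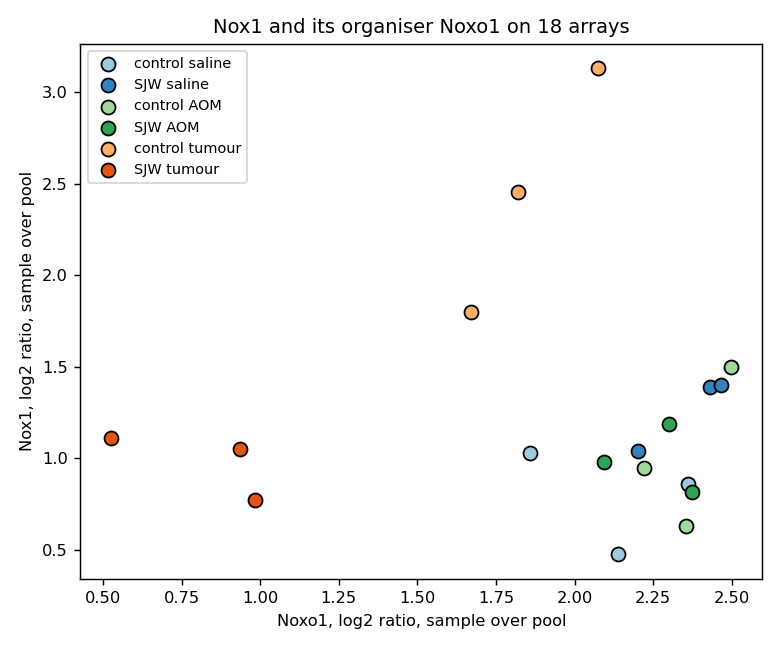
Level of Nox1 (vertical axis) against that of Noxo1 (horizontal axis), both as log2 ratio of sample over pool, 1 point an array, coloured by group. The control-diet tumours sit above the rest in Nox1 (1.80 to 3.13) and the SJW-diet tumours to the left of the rest in Noxo1 (0.53 to 0.98), while the 12 non-tumour arrays stay together at 1.86 to 2.50 in Noxo1.

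Noxa1, whose protein activates the NOX1 complex, was highest in SJW saline tissue. Its levels there were 2.77, 2.34 and 2.89, against 1.84, 1.75 and 2.38 in control saline tissue. After AOM they were 1.39, 2.28 and 2.06 on the control diet and 1.60, 1.72 and 1.15 on the SJW diet. The tumours gave 1.57, 1.65 and 2.15 on the control diet and 1.27, 1.29 and 1.81 on the SJW diet. Within the SJW diet the saline and AOM arrays did not overlap, while control saline and control AOM arrays did. The 5 groups other than SJW saline had means from 1.46 ± 0.31 (SD, n = 3, SJW-diet tumours) to 1.99 ± 0.34 (control saline), each within the larger SD of the next.

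Cyba, whose protein p22phox is shared by NOX1, NOX2 and NOX4, was the 1 gene of the group with every tumour array of both diets above every non-tumour array. Levels were -0.54, -0.62 and -0.85 in control saline tissue, -1.04, -0.72 and -1.20 in SJW saline tissue, -0.18, -0.54 and -0.36 in control AOM tissue and -0.75, -0.49 and -0.02 in SJW AOM tissue. They were 0.63, 0.04 and 0.28 in control-diet tumours and 0.61, 0.37 and 0.68 in SJW-diet tumours. All 12 non-tumour arrays thus lay below the pool and all 6 tumours above it. The means ran from -0.99 ± 0.25 (SD, n = 3) in SJW saline tissue through -0.67 ± 0.16 in control saline, -0.42 ± 0.37 in SJW AOM and -0.36 ± 0.18 in control AOM tissue to 0.32 ± 0.29 and 0.56 ± 0.16 in control-diet and SJW-diet tumours.

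Cybb, the NOX2 subunit of phagocytes, was lowest in SJW saline tissue and higher after AOM. Its levels were 0.29, 0.38 and 0.61 in control saline tissue and 0.13, -0.15 and 0.18 in SJW saline tissue. After AOM they were 1.22, 0.62 and 0.76 on the control diet and 0.54, 0.52 and 1.30 on the SJW diet, and every one of these but 2 lay above all saline arrays. Tumours gave 0.79, 0.89 and 1.42 on the control diet and 0.98, 1.18 and 1.37 on the SJW diet, and so overlapped the AOM tissue. A second Cybb probe gave means of 0.29, -0.06, 0.24, 0.33, 0.91 and 0.70 in control saline, SJW saline, control AOM, SJW AOM, control-diet tumour and SJW-diet tumour samples. It placed the tumours above the other groups but showed a difference of -0.06 ± 0.17 (SE) between control AOM and control saline tissue, where the brighter probe showed 0.44 ± 0.22.

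Markers of several cell types differed between the groups in which Cyba and Cybb differed, among them those of macrophages, cells that carry NOX2 and p22phox. Of 12 markers 10 were measured, all but Mrc1 well above background on all 18 arrays. Their mean level per array was -0.97 to -0.47 in control saline, -1.02 to -0.70 in SJW saline, -0.47 to -0.04 in control AOM and -0.37 to 0.50 in SJW AOM tissue, and 0.17 to 0.48 in control-diet and 0.30 to 0.46 in SJW-diet tumours. Of 12 neutrophil markers 11 were measured, and their mean was -0.79 to -0.24 over the 12 non-tumour arrays, -0.12 to 0.73 in control-diet tumours and -0.59 to 0.28 in SJW-diet tumours. The 8 fibroblast markers averaged -2.17 in control saline, -2.09 in SJW saline, -1.17 in control AOM and -0.79 in SJW AOM tissue, and -0.68 and -0.26 in control-diet and SJW-diet tumours. The 6 smooth muscle markers averaged 0.01, -0.12, 1.99, 1.58, -1.11 and -0.82 in the same order, and the 7 markers of B and plasma cells 1.42, 0.98, 1.58, 1.85, 0.06 and 0.51. These 2 sets were thus lower in tumours. The part of these cells in the levels of Cyba, Cybb and Nox4 was not tested.

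Duoxa2, without which DUOX2 does not reach the cell surface, had the widest range of the epithelial genes. Levels were 1.59, 0.68 and 2.66 in control saline tissue and 2.44, 1.93 and 2.69 in SJW saline tissue. After AOM they were 3.56, 5.0 and 3.86 on the control diet and 2.10, 2.81 and 2.77 on the SJW diet. The 3 control AOM arrays lay above all saline arrays and above all SJW AOM arrays. Control-diet tumours gave 3.39, 3.01 and 5.11 and SJW-diet tumours 2.25, 3.45 and 3.02, which overlapped each other. The means were 4.14 ± 0.76 (SD, n = 3) in control AOM tissue, 3.84 ± 1.12 in control-diet tumours, 2.91 ± 0.61 in SJW-diet tumours, 2.56 ± 0.40 in SJW AOM tissue, 2.36 ± 0.39 in SJW saline tissue and 1.65 ± 0.99 in control saline tissue, and no neighbours in that order were apart by more than the larger SD.

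In each group 1 array was highest for several of the genes. In control AOM tissue, replicate 2 was highest for Nox1, Noxo1, Noxa1 and Duoxa2 and lowest for Cyba, Cybb and Nox4. In control-diet tumours, replicate 3 was highest for Nox1, Noxo1, Noxa1, Duoxa2 and Cybb and lowest for Nox4. Replicate 3 was also highest for Noxo1, Noxa1, Duoxa2 and Cybb in control saline tissue, and for Noxa1, Duoxa2, Nox4 and Cybb in SJW saline tissue. Each of these arrays was also the brightest of its group in the pool's channel. The median green signal was 593 against 263.5 and 243 in control AOM tissue and 755 against 266 and 292 in control-diet tumours. It was 533 against 218 and 507 in control saline tissue and 544.5 against 533 and 220 in SJW saline tissue. The tumour array lay on a different slide from the other 2. The part of brightness and slide in these levels was not tested.

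Nox4, the oxidase that needs neither organiser nor activator, has 2 probes, and they disagreed. The brighter gave 0.01, 0.06 and -0.10 in control saline tissue but 0.25, 2.32 and 3.61 in SJW saline tissue, a spread of 1.70 (SD) in the second group. It gave 0.23, -0.41 and 0.95 in control AOM tissue, 0.49, 0.83 and 0.79 in SJW AOM tissue, -0.20, -0.37 and -1.61 in control-diet tumours and -0.54, -0.32 and -0.78 in SJW-diet tumours. All 6 tumours lay below the pool, as did 2 of the 12 non-tumour arrays, and 2 SJW saline arrays lay far above the rest. The other probe was well above background on none of the 12 non-tumour arrays and on 5 of the 6 tumour arrays, with means of -1.62, -2.36, -2.07, -1.55, -2.42 and -2.14 in the 6 groups taken in the same order. In saline tissue the SJW diet stood 2.07 ± 0.59 (SE) above the control diet by the brighter probe and 0.74 ± 0.41 below it by the other. On the non-tumour arrays the second probe gives only a bound, and no level of Nox4 there is taken from it. Every difference of Nox4 given below is therefore that of the brighter probe. For AOM against saline on the SJW diet the brighter probe gave -1.35 ± 0.59 and the other 0.81 ± 0.41. For tumour against non-tumour tissue the other probe kept the sign, at -0.35 ± 0.41 on the control diet and -0.59 ± 0.41 on the SJW diet.

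**Figure D3:**
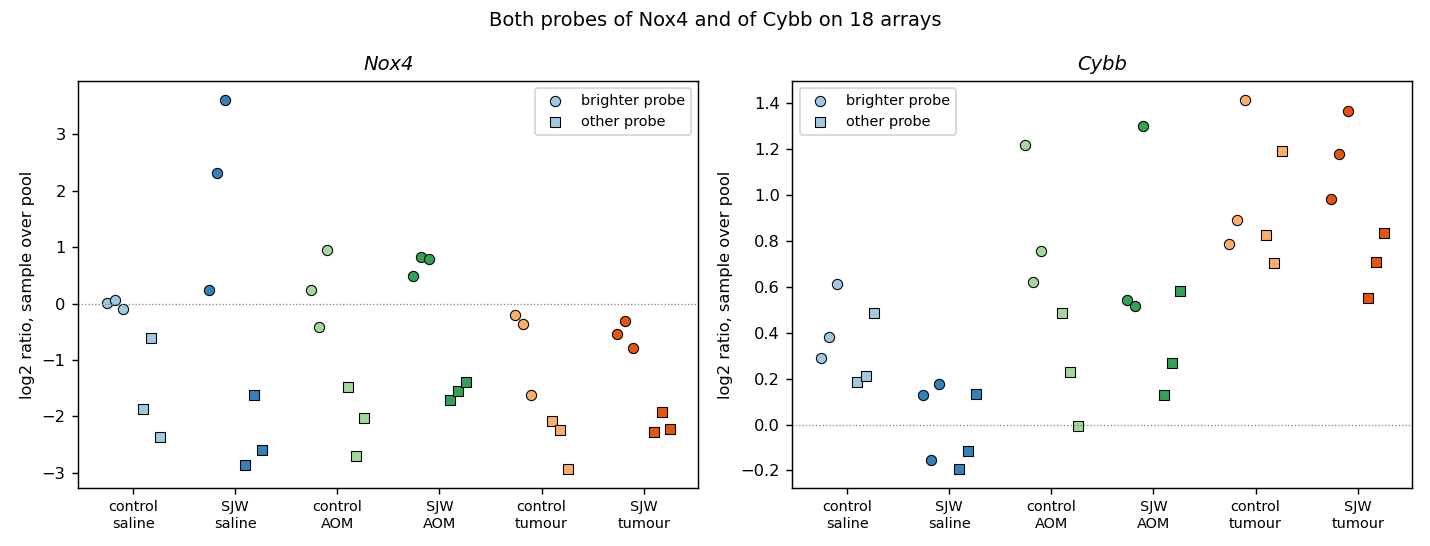
Levels of Nox4 and Cybb (log2 ratio of sample over pool) by 2 probes each on 18 arrays; circles are the brighter probe, squares the other. For Nox4 the brighter probe spans -1.61 to 3.61 with 2 SJW saline arrays at the top, where the other probe stays below 0 on every array, while for Cybb both probes are lowest in SJW saline tissue.

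Tumours of control-diet mice were set against tissue outside tumours after AOM on the same diet, which asks how the carcinogen-induced tumour differs from non-tumour tissue. Nox1 stood 1.44 ± 0.28 (SE) higher in the tumours, a 2.71-fold difference, and Cyba 0.68 ± 0.20 higher, while Noxo1 stood 0.50 ± 0.16 lower. These 3 of the 7 genes passed the test of limma (adjusted p under 0.05 over all genes), where 32% of all 26073 genes did, 12.7% higher and 19.3% lower, and nothing is read from the count. For the same 3 genes the arrays of the groups did not overlap, which held for 18% of all genes in the higher and 24.6% in the lower direction. The tumour minus non-tumour difference was -0.12 ± 0.26 for Noxa1, 0.17 ± 0.22 for Cybb by its brighter probe and 0.67 ± 0.17 by the other, -0.30 ± 0.55 for Duoxa2 and -0.99 ± 0.59 for Nox4. Without control AOM replicate 2 or without control-diet tumour replicate 1 the count was 1, Nox1, and Nox1 itself lay between 1.1 and 1.77 whichever array was left out. Noxo1 passed under 9 of 21 alternative settings, between -0.61 and -0.25. Over all genes the split of calls turned with the scaling: 3313 higher and 5020 lower as reported, 3777 and 1854 with each array centred on its median, and 4848 and 3246 with the scanner's own ratio. The median of all genes moved from -0.05 to 0.11 and 0.15 under those 2, and the sign of Nox1, Cyba and Noxo1 was the same under all 21 alternatives.

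On the SJW diet the same comparison gave another picture for the NOX1 complex. Noxo1 stood 1.44 ± 0.16 (SE) lower in tumours than in the tissue outside them, a 2.71-fold difference, and Cyba 0.98 ± 0.20 higher, while the difference of Nox1 was -0.02 ± 0.28. Noxo1 and Cyba passed the test, 2 of 7 genes where 24.6% of all genes did, 9.18% higher and 15.4% lower, and Cybb joined them without SJW AOM replicate 3. The difference was -0.03 ± 0.26 for Noxa1, 0.39 ± 0.22 for Cybb, 0.35 ± 0.55 for Duoxa2 and -1.25 ± 0.59 for Nox4, whose SJW-diet tumours lay below all SJW AOM arrays, as did those of Noxo1. Groups stood apart in this comparison for 17.7% of all genes with tumours higher, Cyba among them, and for 28.5% with tumours lower. Epithelial markers, all 8 of them measured, averaged 3.51 to 3.84 on control AOM and 3.55 to 3.66 on SJW AOM arrays against 2.48 to 3.04 and 2.46 to 2.95 in the tumours, so they were lower in tumours of both diets, where Nox1 was higher in 1 of them. Their part in the levels of Nox1 and Noxo1 was not tested.

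**Figure D4:**
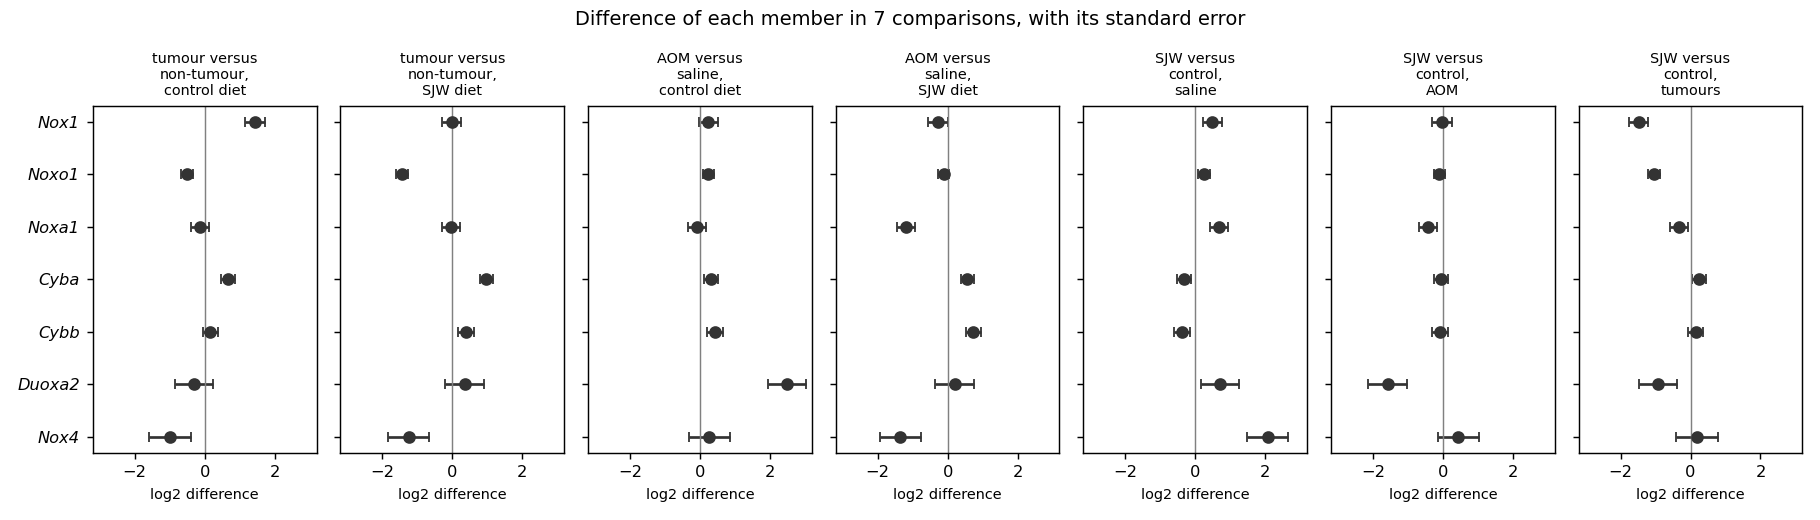
Log2 difference of each gene (horizontal axis) with its standard error in 7 comparisons between groups, from 1 fit over 18 arrays. Nox1 is at 1.44 in tumours of the control diet and at -0.02 in those of the SJW diet, Noxo1 is at -0.50 and -1.44, and Duoxa2 is at 2.50 after AOM on the control diet and at 0.20 on the SJW diet.

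Between the tumours of the 2 diets, Nox1 and Noxo1 were the 2 genes whose arrays did not overlap. Nox1 stood 1.48 ± 0.28 (SE) lower in SJW-diet tumours, a 2.79-fold difference, and Noxo1 1.04 ± 0.16 lower, a 2.06-fold difference. Each slide held tumours of both diets. The difference was -1.18 for Nox1 and -0.99 for Noxo1 on the slide with 2 arrays of each diet, and -2.08 and -1.14 on the slide with 1 of each. With any single tumour array left out, Nox1 lay between -1.81 and -1.15 and Noxo1 between -1.13 and -0.90. Without control-diet tumour replicate 2 Nox1 passed the test, and with all arrays none of the 7 did. The same test passed 0% of all genes, 0 of 26073, with 1565 at an unadjusted p under 0.05 and 0 to 8 passing with 1 array left out, and arrays of the 2 diets stood apart with SJW lower for 5.07% of genes. The other 5 differences were -0.33 ± 0.26 for Noxa1, -0.93 ± 0.55 for Duoxa2, 0.24 ± 0.20 for Cyba, 0.14 ± 0.22 for Cybb and 0.18 ± 0.59 for Nox4.

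Epithelial markers averaged 2.68 in control-diet and 2.70 in SJW-diet tumours, and the 3 measured stem cell markers, Lgr5, Ascl2 and Axin2, 2.46 and 2.58. The neutrophil markers averaged 0.42 and -0.25, and their ranges overlapped. The part of neutrophils in the difference of Nox1 and Noxo1 was not tested.

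The difference between the diets in the tumour comparison was itself fitted. It was -1.45 ± 0.39 (SE) for Nox1 and -0.94 ± 0.23 for Noxo1, SJW diet minus control diet, and between -0.27 and 0.65 for the other 5 genes. None of the 7 passed, and neither did any of the 26073 genes (0%), of which 1079 had an unadjusted p under 0.05.

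AOM was set against saline in tissue outside tumours, which asks what the carcinogen leaves in tissue that has not become a tumour. On the control diet Duoxa2 stood 2.50 ± 0.55 (SE) higher after AOM, a 5.64-fold difference, and it was higher on each of the 3 slides, by 1.97, 4.32 and 1.20. The size depended on the scaling and the arrays, and was 1.51 with the scanner's own ratio, 1.75 with median centring and 2.01 without control saline replicate 2. That array's level of 0.68 came from a red signal of 645.5 over a green of 73.5. Control saline replicate 3, with 295.5 over 66, had a level of 2.66 after background correction and loess. The slide difference of 4.32 rests on that level of 0.68 and on control AOM replicate 2, with 1704 over 80. The slides are therefore read for direction only. The pool's signal at this probe was not well above background on 3 of the 18 arrays. Cyba was 0.31 ± 0.20 and Cybb, by its brighter probe, 0.44 ± 0.22 higher. For these 3 genes the groups did not overlap, which held for 9.45% of all genes in that direction. By the second Cybb probe the difference was -0.06 ± 0.17 and the groups overlapped. Nox1, Noxo1, Noxa1 and Nox4 differed by 0.24 ± 0.28, 0.24 ± 0.16, -0.08 ± 0.26 and 0.27 ± 0.59. None of the 7 passed the limma test, where 0.583% of all genes did, 152 of them, with 3546 at an unadjusted p under 0.05. Over all genes the count was 11 and 26 without control saline replicate 1 or 2, and 45 and 28 without control AOM replicate 1 or 2. Without control saline replicate 3, the array where Duoxa2 was as high as in SJW saline tissue, Duoxa2 passed at a difference of 3.00. Epithelial markers averaged 3.55 to 3.73 in control saline and 3.51 to 3.84 in control AOM tissue.

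On the SJW diet the pattern after AOM was another. Noxa1 stood 1.18 ± 0.26 (SE) lower, a 2.26-fold difference, by 1.17, 0.62 and 1.74 on the 3 slides. It was the 1 gene of 7 that passed, where 1.14% of all genes did and 0.479% were lower. Over all genes the count was 296, and it was 180, 600 and 0 without SJW saline replicate 1, 2 or 3 and 219, 0 and 5 without SJW AOM replicate 1, 2 or 3. The groups of Noxa1 did not overlap, as for 15.5% of all genes in that direction. Neither did those of Cybb by its brighter probe, as for 13.1% in the other. By the second Cybb probe the groups overlapped, at a difference of 0.39 ± 0.17. Cybb was 0.74 ± 0.22 and Cyba 0.57 ± 0.20 higher, Duoxa2 differed by 0.20 ± 0.55, Nox1 by -0.28 ± 0.28, Noxo1 by -0.11 ± 0.16 and Nox4 by -1.35 ± 0.59. Without SJW AOM replicate 3 the difference was 0.48 for Cybb and 0.37 for Cyba. On that array the 5 measured markers of pancreas acinar cells averaged 3.89, against -0.40 and -0.23 on replicates 1 and 2. They averaged 0.92, 1.78 and -0.13 on the SJW saline arrays, and their part was not tested. Noxa1 no longer passed without SJW saline replicate 1 or 3 or without any 1 of the 3 SJW AOM arrays, though its difference stayed between -1.34 and -1.01. Over all 21 alternative settings Noxa1 passed in 8 and Nox4 in 1, and Nox4 was at -2.26 without SJW saline replicate 1. The difference of the AOM effect between diets, SJW minus control, was -2.29 ± 0.78 for Duoxa2 and -1.1 ± 0.37 for Noxa1. It was -1.63 ± 0.84 for Nox4 by its brighter probe. None of the 7 passed that test, nor did any gene (0%), with 2435 at an unadjusted p under 0.05.

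The SJW diet was set against the control diet in tissue outside tumours. After saline, Nox4 (brighter probe) stood 2.07 ± 0.59 (SE) higher, by 0.24, 2.26 and 3.71 on the 3 slides, and Noxa1 0.68 ± 0.26 higher, by 0.94, 0.59 and 0.50. Nox1, Noxo1 and Duoxa2 differed by 0.49 ± 0.28, 0.25 ± 0.16 and 0.71 ± 0.55, and Cyba and Cybb by -0.32 ± 0.20 and -0.38 ± 0.22. Without control saline replicate 2, Nox1 differed by 0.33 and Duoxa2 by 0.23. The sign was not kept by Nox1, at -0.03 with the red channel alone, by Duoxa2, at -0.19 with the scanner's own ratio, or by Cyba, at 0.15 with median centring. Groups did not overlap for Nox1 and Nox4, with SJW higher, as for 8.25% of all genes, and for Cybb, with SJW lower, as for 5.87%. None of the 7 passed, nor did any gene (0%), with 2787 at an unadjusted p under 0.05. With the slide as a block within scan day 71 genes passed, 69 of them higher on the SJW diet, and without control saline replicate 3 or SJW saline replicate 1 the count was 291 or 204. Without SJW saline replicate 1 Nox4 passed at 2.98, and without replicate 3 it was 1.29.

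After AOM, Duoxa2 stood 1.58 ± 0.55 (SE) lower on the SJW diet, by 1.46, 2.19 and 1.1 on the 3 slides, and its arrays did not overlap, as for 5.67% of all genes in that direction. Noxa1 differed by -0.42 ± 0.26 and Nox4 by 0.45 ± 0.59, and Nox1, Noxo1, Cyba and Cybb by -0.03 ± 0.28, -0.10 ± 0.16, -0.06 ± 0.20 and -0.08 ± 0.22. None of the 7 passed, nor did any gene (0%), with 829 at an unadjusted p under 0.05. The control AOM arrays are the same in this comparison, in the AOM comparison of the control diet and in the control-diet tumour comparison, so the values of Duoxa2 in them are not independent.

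Other genes of the NADPH oxidase pathway were taken from a list of 19, of which 16 were measured. In tumours of the control diet 3 rose, 4 fell and 9 did not pass, where 12.7% of all genes rose and 19.3% fell, with a median difference of -0.02 against -0.05 over all genes. Rac3, a GTPase of the RAC family, rose by 1.80 ± 0.22 (SE; limma adjusted p = 3.23e-05), Sh3pxd2b (TKS4), an organiser used by NOX1 in some cells, by 0.95 ± 0.21 (adjusted p = 0.00281) and Poldip2, a partner of NOX4, by 0.47 ± 0.16 (adjusted p = 0.0316). Prkcd, a kinase that phosphorylates the phagocyte organiser NCF1, fell by 1.33 ± 0.16 (adjusted p = 2.3e-05), Cybc1, a chaperone of the NOX2 complex, by 0.66 ± 0.14 (adjusted p = 0.00224) and Rac1, the GTPase of the NOX1 complex, by 0.57 ± 0.14 (adjusted p = 0.00521). The fourth that fell was the voltage-gated proton channel Hvcn1, at -1.14 ± 0.40. Poldip2 passed under 12 of 20 alternatives and Hvcn1 under 12 of 21. Of the phagocyte subunits, Ncf1 and Ncf4 differed by 0.22 ± 0.20 and -0.07 ± 0.30 and did not pass. With each array centred on its median 3 of the 16 rose and 1 fell, and with the red channel alone 6 rose and 3 fell.

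In tumours of the SJW diet 2 of the 16 rose, 2 fell and 12 did not pass, a share near the 24.6% of all genes that passed, with a median of -0.05 against -0.06 over all genes. Rac3 rose by 2.49 ± 0.22 (SE; limma adjusted p = 2.98e-06) and Sh3pxd2b by 0.99 ± 0.21 (adjusted p = 0.00295). Prkcd fell by 0.91 ± 0.16 (adjusted p = 0.000736) and Hvcn1 by 1.18 ± 0.40 (adjusted p = 0.0427). Rac1 gave -0.28 ± 0.14 and Poldip2 0.04 ± 0.16, and neither passed. With each array centred on its median 3 rose and none fell. In the other 7 comparisons none of the 16 passed, under the reported settings and under every alternative run.

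**Figure D5:**
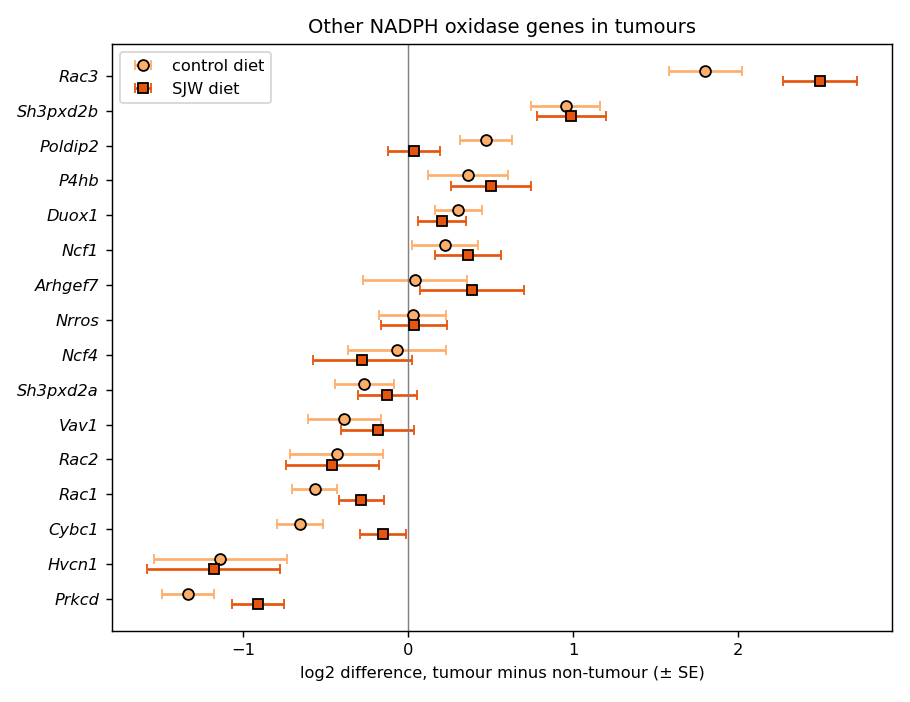
Log2 difference, tumour minus non-tumour tissue, with its standard error for 16 other genes of the NADPH oxidase pathway (vertical axis), circles for the control diet and squares for the SJW diet. Rac3 stands at 1.80 and 2.49 and Sh3pxd2b at 0.95 and 0.99, while Prkcd stands at -1.33 and -0.91.

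The genes that remove superoxide and peroxide, a list of 21 that were all measured, changed in both directions in tumours. On the control diet 2 rose and 9 fell, where 12.7% of all genes rose and 19.3% fell, with a median of -0.30 against -0.05 over all genes. Sod3, the superoxide dismutase outside cells, rose by 1.48 ± 0.27 (SE; limma adjusted p = 0.000858) and Prdx1, a cytosolic peroxiredoxin, by 0.51 ± 0.12 (adjusted p = 0.00504). Prdx6 fell by 2.77 ± 0.32 (adjusted p = 1.73e-05), Txn1, the thioredoxin that reduces peroxiredoxins, by 1.68 ± 0.14 (adjusted p = 9.18e-07) and the mitochondrial and peroxisomal Prdx5 by 0.66 ± 0.12 (adjusted p = 0.00099). Without control AOM replicate 1 the count was 7 in place of 11, and with each array centred on its median 1 rose and 2 fell.

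On the SJW diet 3 of the 21 rose and 5 fell in tumours, where 9.18% of all genes rose and 15.4% fell, with a median of -0.16 against -0.06. Prdx1 rose by 0.89 ± 0.12 (SE; limma adjusted p = 9.64e-05), Prdx2 by 0.64 ± 0.12 (adjusted p = 0.00121) and Sod3 by 1.28 ± 0.27 (adjusted p = 0.00328). Txn1 fell by 1.24 ± 0.14 (adjusted p = 1.66e-05), Prdx6 by 2.20 ± 0.32 (adjusted p = 0.000169) and the mitochondrial Txn2 by 0.61 ± 0.13 (adjusted p = 0.0034). With each array centred on its median 3 rose and 2 fell.

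After AOM on the control diet, Gpx2, the glutathione peroxidase of the gut epithelium, was the 1 gene of the 21 that rose, where 0.583% of all genes passed, by 1.34 ± 0.29 (SE; limma adjusted p = 0.0473). It rose in the comparison in which Duoxa2 stood highest, and it no longer passed without control AOM replicate 1 or 2 or control saline replicate 1 or 2. It passed under 8 of the 20 alternatives that gave it a value. On the SJW diet the AOM difference of Gpx2 was 0.43 ± 0.29 and did not pass, and the difference between diets, -0.90 ± 0.40, did not pass either.

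Of the peroxidases, which use the hydrogen peroxide that oxidases make, 4 of 5 were measured, and 1 rose and 1 fell in tumours of each diet, where 32% and 24.6% of all genes passed. Lpo, lactoperoxidase, the secreted enzyme that pairs with DUOX proteins on mucosal surfaces, fell by 1.92 ± 0.33 (SE; limma adjusted p = 0.000528) in control-diet and by 1.79 ± 0.33 (adjusted p = 0.00122) in SJW-diet tumours. Pxdn, peroxidasin, which cross-links collagen IV, rose by 0.85 ± 0.18 (adjusted p = 0.00221) and 0.84 ± 0.18 (adjusted p = 0.0031). Mpo, the neutrophil peroxidase, and Epx, that of eosinophils, did not pass in either. The medians of the 4 were -0.15 and -0.53, and with each array centred on its median 2 rose and 1 fell on the control diet and 1 rose and 2 fell on the SJW diet.

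Mucosal defence genes, 19 of 21 measured, give the setting in which DUOX2 and NOX1 are known to act. In control-diet tumours 6 rose and 6 fell, where 12.7% of all genes rose and 19.3% fell, with a median of 0.26 against -0.05 over all genes. Il1b rose by 1.94 ± 0.35 (SE; limma adjusted p = 0.000743), Cxcl1, a chemokine for neutrophils, by 1.34 ± 0.25 (adjusted p = 0.000793) and Lcn2, an iron-trapping protein, by 3.21 ± 0.64 (adjusted p = 0.00139). The serum amyloids Saa1 and Saa3 fell by 2.68 ± 0.36 (adjusted p = 5.79e-05) and 2.20 ± 0.30 (adjusted p = 7.33e-05), and Il18 by 1.29 ± 0.18 (adjusted p = 9.84e-05).

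In SJW-diet tumours 4 of the 19 rose and 6 fell, where 9.18% of all genes rose and 15.4% fell, with a median of 0.11 against -0.06, and the count was 6 in all without SJW-diet tumour replicate 3. Cxcl1 rose by 1.09 ± 0.25 (SE; limma adjusted p = 0.00461), Cxcl5 by 2.14 ± 0.56 (adjusted p = 0.0111) and Lcn2 by 2.04 ± 0.64 (adjusted p = 0.0284). Saa3 fell by 1.90 ± 0.30 (adjusted p = 0.000339), Pigr, the receptor that carries antibodies across the epithelium, by 1.74 ± 0.33 (adjusted p = 0.00145) and Saa1 by 1.78 ± 0.36 (adjusted p = 0.00199). After AOM on the SJW diet Il18 was the 1 gene that passed, where 1.14% of all genes did, lower by 0.96 ± 0.18 (adjusted p = 0.0272), and it did not pass without SJW saline replicate 3 or SJW AOM replicate 2 or 3. None of the 19 passed as lower there with median centring, the red channel alone or the scanner's own ratio, and 1 passed as higher with the last. Between the diets none of the 19 passed in tumours, where the median was -0.70 against 0.01 over all genes.

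For each gene the 3 named genes of most similar pattern over the 18 arrays were listed by Pearson's r, a description in which all points share the pool, the slides and the group differences. Duoxa2 was most like Zc3h12a (r = 0.91), Trim15 (0.88) and Sprr2h (0.88), and the first 2 kept 0.94 and 0.90 over the 12 non-tumour arrays alone. Nox1 was most like Top1mt (0.86), Mettl21a (0.84) and Hcar2 (0.83), with 0.50, 0.72 and 0.74 over the non-tumour arrays. Noxo1 was most like Poc1b (0.91), Pofut1 (0.91) and Eps8l3 (0.91), of which Eps8l3 had 0.34 over the non-tumour arrays. Noxa1 was most like Vgll1 (0.92), Bco2 (0.90) and Sult2b1 (0.89), with 0.96, 0.88 and 0.90 over the non-tumour arrays.

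Cyba was most like Dbn1 (0.97), Scube1 (0.96) and Dkk3 (0.94). Cybb was most like Bcl2a1c (0.93), Ddx39b (0.91) and C1qc (0.89), the last a complement gene of macrophages that was also among the markers used here, and C1qc had 0.14 over the 6 tumours. The brighter Nox4 probe was most like Abcc12 (0.99), Cntnap5a (0.98) and Pgk2 (0.98), and these kept 0.98, 0.98 and 0.97 over the non-tumour arrays.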

How the data were processed

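RNA of 18 samples was measured on 2-colour arrays, Cy5 for the sample and Cy3 for the pool in every one, with no dye swap. The deposited scanner files hold spot intensity and a log10 ratio, made with Agilent Feature Extraction 10.10.1.1, per the file headers. The authors also deposited a table of log2 values, whose columns followed the scanner's ratio with r of at least 0.996. Here the median intensities were background-corrected (normexp, offset 50) and normalised by loess within arrays (limma 3.58.1, R 4.3.3). A probe was kept if every array of at least 1 group read it as above background in Cy5 (34081 probes). Each gene took its brightest probe, and 1 fit over 6 groups left 12 residual degrees of freedom, with Benjamini-Hochberg adjustment over 26073 genes. The number of arrays limits precision.

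The genes and lists were chosen with earlier results of these data known. Every gene of the group is named, and of each other list up to 3 genes per direction with the smallest p (Hvcn1 on the control diet, Ncf1, Ncf4, Mpo, Epx and values of a named gene on the other diet were added after their values were seen). 1 gene of these lists is not reported here. The series calls its arrays biological replicates without naming the animals, so p-values measure the spread between these samples. Same-numbered non-tumour arrays share a slide. Their deviations correlated over 0.1 in every pair only for SJW against control after saline (0.17, 0.41 and 0.36).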

Additional observations from a re-analysis of the deposited data

How the results depend on the processing

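None of the called differences of the 7 genes reversed under any alternative run, and of 1404 refitted differences 46 moved by more than the spread between replicates. The count of genes called after AOM on the SJW diet (1, Noxa1) was 0 with median centring, the red channel alone, the scanner's own ratio, the deposited values, non-uniform spots left out, green brightness as a covariate, the trended robust fit and a fit of those groups only. The count after AOM on the control diet (0) was 1, Duoxa2, with the red channel alone, probes well above background on every array, the replicate block, green brightness and the trended robust fit. With non-uniform spots left out the count in SJW-diet tumours was 1 (Noxo1), where Cyba had no value. That setting, among the 21 below, leaves 1 control-diet tumour array each for Nox1 and Noxo1, so its count there is not given. Leaving out 1 array gave 1 to 3 (control-diet tumours), 2 to 3 (SJW-diet tumours), 0 to 1 for AOM on either diet and for the SJW diet after saline and in tumours, and 0 for the others. The replicate block changed no other count. Over 21 alternatives Nox1 passed in control-diet tumours in 21, Cyba in 18 and Noxo1 in 9; in SJW-diet tumours Noxo1 passed in 21. On the SJW diet after saline the directions of Nox1, Duoxa2 and Cyba are not settled. Among all genes the share called in control-diet tumours was 21.1% to 35.7%. Low signal leaves 1 Nox4 probe near background outside tumours. The causes were not tested.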
